A study of Mus musculus with 75 samples.

Results

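Carboxylesterases are serine hydrolases that cut ester bonds in drugs, toxins and neutral lipids. The mouse genes measured here were chosen by name from a list of 9 (Ces1d, Ces1e, Ces1f, Ces1g, Ces2a, Ces2c, Ces2e, Ces3a and Ces3b), and the list was drawn up because Ces2a was known to be lower in these livers under a high-fat diet. Of the 9 genes, 6 were in the array annotation used here, each with 1 probe set, among 19147 genes in all. They were Ces1d, Ces1e, Ces1f, Ces1g, Ces2a and Ces2e. Ces2c, Ces3a and Ces3b were not analysed here. Values are log2 probe set intensity, a relative scale on which levels of different genes cannot be set against each other.

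Expression was measured on 75 arrays, 39 of liver and 36 of epididymal white fat, the fat pad beside the epididymis. The mice were C57BL/6 males, either CB1-/- (without the cannabinoid receptor gene Cnr1) or control littermates with the receptor, called wild type below. From 2 months of age they were kept for 14 weeks on chow, in which fat supplied 13% of the calories, or on a high-fat diet, in which it supplied 59.4%. All were then gavaged on 2 days, with AM251, an inverse agonist of CB1, at 10 mg per kg in the treated groups and with 0.5% methylcellulose as vehicle in the others, and tissue was collected on the morning of day 3. The CB1-/- line was backcrossed to C57BL/6J and later re-derived on C57BL/6N, so the substrain can differ between mice. Tissue, diet, genotype and treatment gave 16 groups of 5 arrays, except high-fat CB1-/- vehicle liver with 4, and high-fat CB1-/- vehicle fat and chow CB1-/- AM251 fat with 3 each. The labels give each array a number but do not say that each came from a separate mouse, so p-values measure the spread between arrays.

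Ces1d and Ces1f sit in the endoplasmic reticulum of hepatocytes and adipocytes. Ces1d is a triacylglycerol hydrolase that releases fatty acids from lipid stores, in liver for the assembly of very low density lipoprotein (VLDL) and in fat as part of basal lipolysis, and Ces1f is a close relative with lipase activity. Ces1e holds beta-glucuronidase in the endoplasmic reticulum, and Ces1g takes part in hepatic lipid handling. The Ces2 enzymes of liver and gut hydrolyse drug esters and acylglycerols. The nuclear receptors CAR (Nr1i3) and PXR (Nr1i2) are known regulators of carboxylesterase genes in mouse liver.

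All carboxylesterase genes of the mouse lie on chromosome 8 in a pair of tandem clusters. In the RefSeq gene order of assembly GRCm38.p6, Ces1d, Ces1e, Ces1f and Ces1g are consecutive protein-coding genes in the first cluster, and Ces2a and Ces2e lie in the second with Ces2b and Ces2c between them. Promoter windows of 250 bases before to 50 bases after the start were given for 4 of the 6 measured members. The windows of Ces2a and Ces2e are shown because these neighbours of the same subfamily had different levels across the liver groups, and both are on the plus strand, at chr8:104733753-104734052 and chr8:104926010-104926309 of GRCm38.p6. Capitals mark matches on either strand to the motifs searched: the nuclear receptor half-site AGGTCA, the TATA box TATAAA, the CCAAT box CCAAT and the E-box CACGTG.
Ces2a: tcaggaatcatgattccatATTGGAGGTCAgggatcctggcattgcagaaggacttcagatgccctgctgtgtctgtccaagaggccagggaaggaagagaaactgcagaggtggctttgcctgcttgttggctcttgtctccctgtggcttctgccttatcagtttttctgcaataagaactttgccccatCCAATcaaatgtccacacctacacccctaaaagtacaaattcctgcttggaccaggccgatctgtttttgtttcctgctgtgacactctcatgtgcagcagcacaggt
Ces2e: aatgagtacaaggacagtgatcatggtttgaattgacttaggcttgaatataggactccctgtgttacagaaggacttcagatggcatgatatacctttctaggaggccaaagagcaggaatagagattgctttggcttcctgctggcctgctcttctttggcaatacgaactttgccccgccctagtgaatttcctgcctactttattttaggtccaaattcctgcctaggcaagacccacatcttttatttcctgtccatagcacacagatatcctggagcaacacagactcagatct
The Ces2a window held AGGTCA at position -226 from the start, directly after a reverse-strand CCAAT at -231, and a forward CCAAT at -58. The Ces2e window held none of the 4 motifs. Among 32851 promoter windows of the same length, 16.3% held AGGTCA, 37.4% CCAAT, 13.6% TATAAA and 7.15% CACGTG. The windows of Ces2a and Ces2e shared an identical run of 17 bases, cagaaggacttcagatg, at -205 and -183, and another of 12 bases, gaactttgcccc, at -72 and -82. These matches describe the letters of the windows; binding was not measured.

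Ces1d was the member with the brighter signal in fat, and the other 5 were brighter in liver. In chow-fed wild-type vehicle mice the liver minus fat difference in log2 intensity was -1.0 ± 0.17 (SE, n = 5 and 5) for Ces1d, against 7.52 ± 0.17 for Ces1e, 6.95 ± 0.11 for Ces2a, 6.26 ± 0.17 for Ces1g, 4.14 ± 0.13 for Ces2e and 1.43 ± 0.19 for Ces1f. The fat signal of Ces1e, Ces1g, Ces2a and Ces2e is not shown to be above background, so their 4 differences are between measured signals and are not fold changes in transcript. Over the alternatives tried they ran from 6.37 to 7.80 for Ces1e, 5.00 to 6.69 for Ces1g, 6.40 to 7.28 for Ces2a and 3.13 to 4.76 for Ces2e. All 6 passed the test across both tissues (limma, Benjamini-Hochberg adjusted over all genes, threshold 0.05), with the highest adjusted p at 3.77e-07 for Ces1d, in a comparison where 79.4% of all genes passed. The median of all genes lay at -0.50 and array medians were 25.8 to 28.7 intensity units for liver but 44.3 to 48 for fat, so part of each difference depends on the scaling between tissues. After quantile normalization of the liver and fat arrays together the difference was -1.17 for Ces1d and 1.68 for Ces1f.

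**Figure D1:**
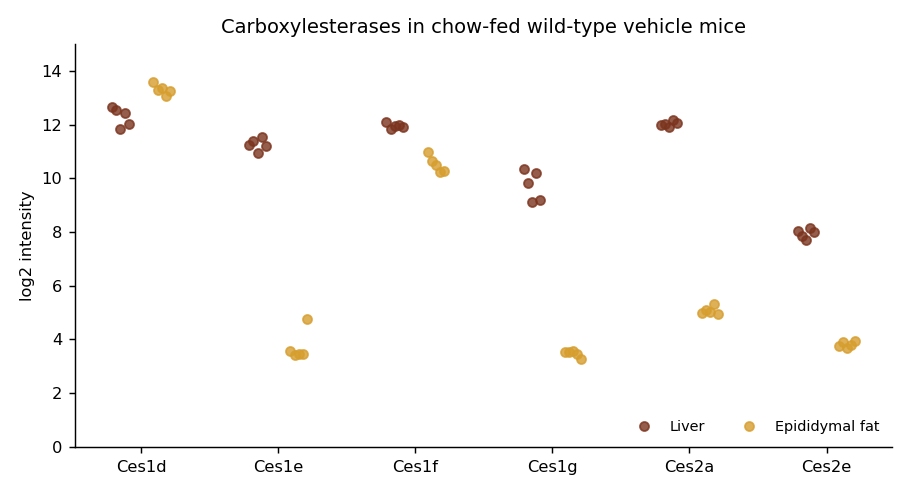
Log2 intensity of the 6 measured carboxylesterases (y axis) in liver and epididymal fat of chow-fed wild-type vehicle mice; each point is 1 array, 5 per tissue. Ces1d lay higher in fat by 1.0 on this scale, and the points of the other 5 genes lay higher in liver.

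The level of each member varied by different amounts over the 8 groups of a tissue. In liver the group means of Ces2a spanned 1.64 log2 units, those of Ces1d 0.76, of Ces1g 0.73, of Ces2e 0.44, of Ces1e 0.43 and of Ces1f 0.31. In fat the span was 1.83 for Ces1f and 0.92 for Ces1d. Ces1e, Ces1g, Ces2a and Ces2e were dim in fat, with medians over the 36 arrays of 3.43, 3.51, 4.98 and 3.92, where 10% of genes lay under 3.55; no detection calls were used, so a level above background is not shown for them.

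In liver, Ces2a was lower in every high-fat array than in every chow array. This is the pattern on which the gene was chosen, so it is described here without a test. In chow-fed wild-type vehicle livers the 5 arrays read 11.98, 12.03, 11.91, 12.18 and 12.05, and in high-fat-fed ones 10.78, 10.18, 11, 10.63 and 10.52. The high-fat minus chow difference was -1.41 ± 0.12 (SE), 2.66-fold lower. With AM251 the chow arrays read 12.08, 11.95, 12.01, 12.07 and 12.09, and the high-fat arrays 11.12, 11.44, 11.63, 10.81 and 11.04, a difference of -0.83 ± 0.12.

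The separation of the diets in Ces2a was also present in the mice without CB1. The CB1-/- vehicle livers read 12.06, 12.44, 12.46, 12.06 and 12.31 on chow and 10.95, 11.22, 11.10 and 10.69 on the high-fat diet, a difference of -1.28 ± 0.13. Those given AM251 read 12.17, 12.24, 12.35, 12.28 and 12.27 on chow and 11.58, 11.29, 11.41, 11.48 and 11.29 on the high-fat diet, a difference of -0.85 ± 0.12. No high-fat array in any of the 4 comparisons reached the lowest chow array. In order of group means, the 4 chow groups came first, from CB1-/- vehicle at 12.27 ± 0.20 (SD, n = 5) to wild-type vehicle at 12.03 ± 0.10 (SD, n = 5). Then followed high-fat CB1-/- AM251 at 11.41 ± 0.12 (SD, n = 5), wild-type AM251 at 11.21 ± 0.32 (SD, n = 5), CB1-/- vehicle at 10.99 ± 0.23 (SD, n = 4) and wild-type vehicle at 10.62 ± 0.30 (SD, n = 5). Of the 7 neighbouring pairs in that order, 3 were further apart than the larger of their SDs: the 2 genotypes on chow, the lowest chow and highest high-fat groups, and the last 2 high-fat groups.

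**Figure D2:**
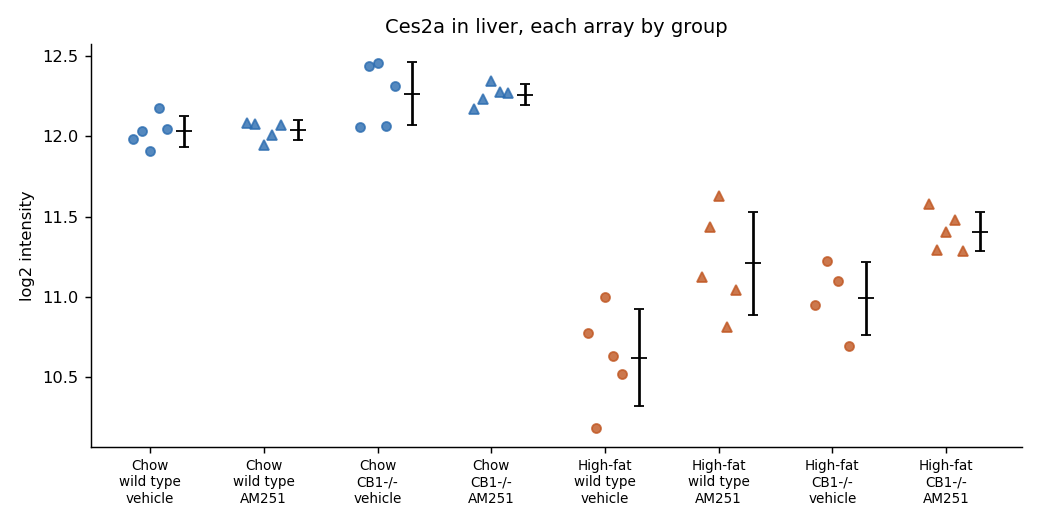
Ces2a log2 intensity (y axis) in the 8 liver groups; points are arrays (circles vehicle, triangles AM251, blue chow, orange high-fat), and black marks are the group mean with its SD. All high-fat arrays lay below all chow arrays, and the wild-type vehicle group was lowest, at a mean of 10.62.

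The other 5 members showed smaller diet differences in liver, and in wild-type mice the arrays of the diets overlapped for each. In wild-type vehicle livers the difference was -0.30 ± 0.18 (SE) for Ces1d, -0.30 ± 0.15 for Ces1e, -0.17 ± 0.11 for Ces1f, 0.17 ± 0.22 for Ces1g and 0.13 ± 0.14 for Ces2e. Thus Ces2a was the 1 member of 6 with all high-fat arrays below all chow arrays there, where 1.24% of all genes had that pattern. It was again 1 of 6 in wild-type AM251 livers (1.82% of all genes) and in CB1-/- vehicle livers (6.42%). In CB1-/- AM251 livers the count was 4 of 6 (3.19% of all genes), since Ces1d (-0.43 ± 0.18), Ces1e (-0.33 ± 0.15) and Ces1f (-0.31 ± 0.11) were separated as well. In those same livers the arrays of Ces1g, with the larger difference of -0.63 ± 0.22, overlapped. These shares come from the contrasts that chose the list and nothing is read from them.

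The defining hepatocyte transcripts were high in all livers. The summed log2 level of the 10 measured hepatocyte markers of 13 listed ran from 17.12 to 17.21 in chow and from 17.10 to 17.24 in high-fat wild-type vehicle livers. Macrophage markers (10 of 12 measured) summed to 10.28 to 11.11 on chow and 10.64 to 11.42 on the high-fat diet. Adipocyte markers (7 of 9 measured) summed to 8.56 to 9.04 on chow and 8.91 to 9.87 on the high-fat diet. The highest liver medians of that list were those of Pparg (7.18) and Fabp4 (6.87), and Cidec ran from 4.72 to 8.71. Adipoq reached at most 3.56 and Plin1 at most 4.35 in any liver array, so the adipocyte sum does not show adipocytes. Intestinal epithelium markers (6 of 6 measured) summed to 10.67 to 11.02 on chow and 11.53 to 12.10 on the high-fat diet, so the diets did not overlap in this sum. It mainly follows 1 gene, Fabp2, with a median of 11.08 over the 39 liver arrays. Medians of the other intestinal markers ran from 3.33 for Mep1b to 7.29 for Lgals4, so the sum does not show intestinal cells. The part of these markers in the Ces2a result was not tested. The 7 other measured carboxylesterase genes differed between diets by -0.71 to 0.15 in wild-type vehicle livers, the lowest being Ces4a, an enzyme of the same second cluster. In bulk tissue, fewer cells of a type and less RNA per cell cannot be told apart.

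**Figure D3:**
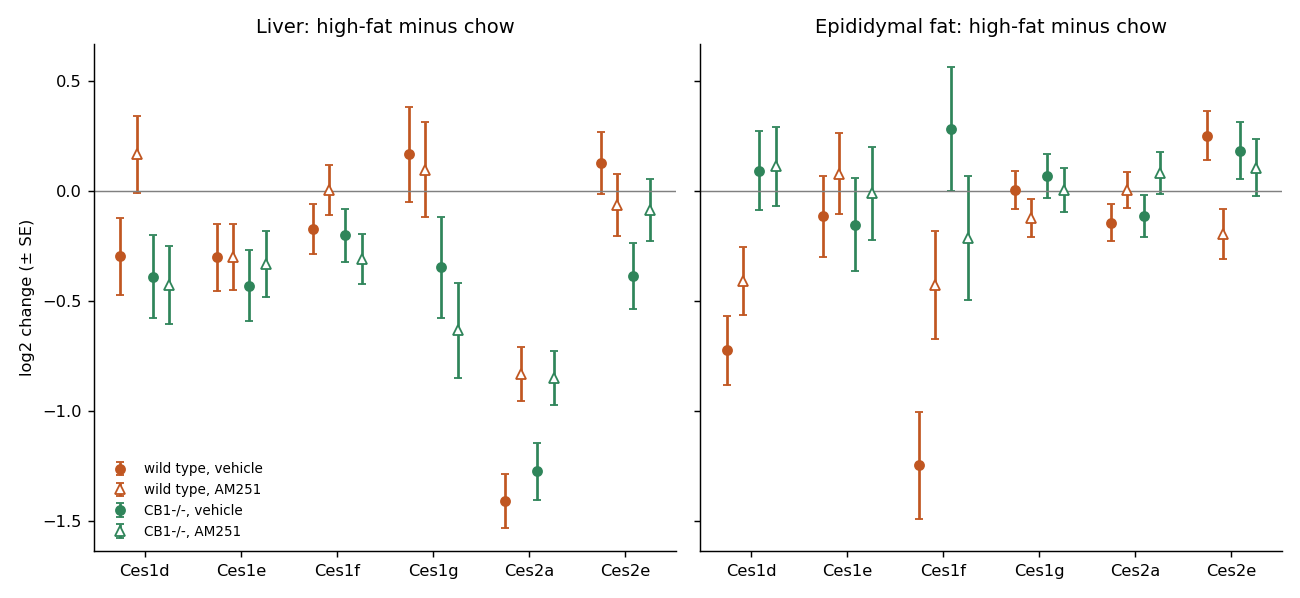
High-fat minus chow log2 change (y axis, error bars SE) of the 6 members (x axis) in liver (left) and epididymal fat (right), for each genotype and treatment. In liver Ces2a was lowest in all 4 settings, from -1.41 to -0.83, and in fat Ces1f (-1.25) and Ces1d (-0.72) were lower in wild-type vehicle mice.

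In wild-type livers under the high-fat diet, Ces2a was higher with AM251 than with vehicle. The AM251 arrays, from 10.81 to 11.63, overlapped the vehicle arrays, from 10.18 to 11. The AM251 minus vehicle change was 0.59 ± 0.12 (SE, n = 5 and 5), 1.5-fold higher, with a limma adjusted p of 0.00357. This was the only call among the 6 members, in a comparison where 1.91% of all genes passed. The vehicle arrays are the ones on which the diet difference was chosen, so the test is not independent of that choice. In a fit of only these 10 arrays the same change had an adjusted p of 0.101.

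In high-fat-fed CB1-/- livers the AM251 arrays of Ces2a, from 11.29 to 11.58, all lay above the vehicle arrays, from 10.69 to 11.22. The change of 0.42 ± 0.13 (n = 5 and 4) did not pass (limma adjusted p = 0.999), where 0.0104% of all genes passed. The difference of the AM251 change between the genotypes was 0.17 ± 0.18, with a limma adjusted p of 0.932 (0.564% of all genes passed), so a difference between genotypes was not shown. On chow the AM251 change of Ces2a was 0.01 ± 0.12 in wild-type and -0.01 ± 0.12 in CB1-/- livers.

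No other member passed a test of AM251 in liver. In high-fat wild-type livers their changes ran from -0.08 for Ces2e to 0.38 ± 0.18 for Ces1d, with limma adjusted p from 0.389 to 0.983. The counts of members past the threshold were 0 of 6 in high-fat CB1-/- livers (1 of 6 at an unadjusted p under 0.05, as had 3.36% of all genes), 0 of 6 in chow wild-type livers (0 unadjusted; 0% of all genes passed) and 0 of 6 in chow CB1-/- livers (1 unadjusted, beside 13.9% of all genes; 0.125% of all genes passed). For the genotype difference of the AM251 change they were 0 of 6 on the high-fat diet and 0 of 6 on chow (0% of all genes passed), both also 0 unadjusted.

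Among the other genes of these pathways, AM251 in high-fat wild-type livers raised both xenobiotic receptor genes. Nr1i3, encoding CAR, rose by 0.75 ± 0.16 (limma adjusted p = 0.00536) and Nr1i2, encoding PXR, by 0.59 ± 0.14 (adjusted p = 0.0128), the only calls among 18 measured nuclear receptors and factors, where 1.91% of all genes passed. Of 25 measured genes of drug and xenobiotic metabolism 4 rose, among them Cyp2c29 (1.28 ± 0.12) and Cyp1a2 (1.05 ± 0.17), both cytochromes P450, and 1 fell, the glutathione transferase Gstm3 (-2.0 ± 0.31). Of 20 measured lipid hydrolases and their regulators 2 rose, the monoacylglycerol hydrolase Abhd6 (0.97 ± 0.15) and the cholesteryl ester hydrolase Nceh1 (0.69 ± 0.18), and Pnpla3, a lipid droplet hydrolase, fell (-1.24 ± 0.24). Of 12 VLDL assembly genes 1 fell, Tm6sf2 (-0.79 ± 0.18). The medians of these 4 lists were 0.03, 0.18, -0.07 and -0.01, beside -0.01 for all genes. The rise of Cyp2c29 was not limited to wild-type mice. AM251 raised Cyp2c29 (1.18 ± 0.13) and Cyp2c55 (2.57 ± 0.33) in high-fat CB1-/- livers, the only 2 genes called there. It raised Cyp2c29 by 0.62 ± 0.12 in chow CB1-/- livers. On the high-fat diet the genotype difference of the AM251 change passed for Gstm3 (-2.41 ± 0.46) and Cyp2c55 (-2.18 ± 0.46) of the xenobiotic list.

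Of the 7 other carboxylesterase genes, Ces4a rose with AM251 in high-fat wild-type livers, by 0.78 ± 0.20 (limma adjusted p = 0.031). In high-fat CB1-/- livers its change was -0.48 ± 0.22 (adjusted p = 0.999), and the difference between genotypes, 1.26 ± 0.30, passed (adjusted p = 0.0305). In the same wild-type livers the hepatocyte marker sum ran from 16.97 to 17.12 with AM251 and from 17.10 to 17.24 with vehicle, and 3 of 10 hepatocyte markers were lower; their part in these results was not tested.

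Between CB1-/- and wild-type livers no member differed past the threshold. On the high-fat diet under vehicle Ces2a differed by 0.37 ± 0.13 (CB1-/- minus wild type, n = 4 and 5; limma adjusted p = 0.188) and Ces2e by -0.44 ± 0.15 (adjusted p = 0.172). These were the 2 of 6 with an unadjusted p under 0.05, as had 12.2% of all genes, where 1.19% of all genes passed after adjustment. The high-fat wild-type vehicle arrays belong to the diet difference that chose the list, so the Ces2a test is not independent of that choice. On chow the differences ran from -0.23 to 0.24, with 0 of 6 called and 0 unadjusted, where 6.77% of all genes passed. That share is unstable: 1297 genes passed in the fit reported and 3 to 1991 over the alternatives. Cnr1 had 2 probe sets, and only the brighter on average in each tissue was used here. By that probe set Cnr1 itself gave no check of the genotype labels. Its group means were 5.72 to 5.95 for liver and 5.29 to 7.24 for fat, with CB1-/- minus wild-type differences under vehicle between -0.33 and 0.20, and whether its probes lie in the deleted part is not given in the sources used here.

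In epididymal fat, the high-fat diet lowered Ces1d and Ces1f in wild-type vehicle mice. Ces1f read 10.97, 10.65, 10.49, 10.22 and 10.29 in chow-fed fat pads and 9.38, 9.88, 9.05, 9.07 and 9.01 in high-fat-fed ones. Every high-fat array of Ces1f lay below every chow array. Its change was -1.25 ± 0.24 (SE, n = 5 and 5), 2.38-fold lower, with a limma adjusted p of 0.000241.

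Ces1d read 13.58, 13.29, 13.37, 13.05 and 13.25 on chow and 12.35, 13.25, 12.56, 12.20 and 12.55 on the high-fat diet. The second high-fat value, from the array numbered 3, lay within the chow range, and the other 4 lay below it. The change of Ces1d was -0.72 ± 0.16, 1.65-fold lower (adjusted p = 0.000691). With 2 of 6 members called (3 at an unadjusted p under 0.05, as had 34.4% of all genes) where 24.5% of all genes passed, the count does not set the family apart from its background. The other 4 members differed by -0.14 to 0.25, with adjusted p from 0.105 to 0.986.

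In CB1-/- fat neither gene passed the test of diet. High-fat CB1-/- vehicle fat pads read 13.53, 13.47 and 13.51 for Ces1d and 10.89, 11.01 and 11.42 for Ces1f, and chow-fed ones 13.43, 13.21, 13.51, 13.49 and 13.42 for Ces1d and 10.54, 10.62, 10.96, 11.13 and 10.88 for Ces1f. The diet changes were 0.09 ± 0.18 for Ces1d and 0.28 ± 0.28 for Ces1f, and 0 of 6 members passed (0 unadjusted), where 0.00522% of all genes did.

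The diet change differed between the genotypes for both genes. Wild type minus CB1-/-, the difference was -1.53 ± 0.37 for Ces1f (limma adjusted p = 0.0124) and -0.82 ± 0.24 for Ces1d (adjusted p = 0.034), 2 of 6 members where 6.34% of all genes passed. Both calls were close to the threshold. Leaving out 1 array at a time gave adjusted p from 0.00391 to 0.0513 for Ces1f, which was lost without high-fat CB1-/- vehicle array 44 (-1.37). For Ces1d the range was 0.00309 to 0.0776, and the call was lost without any 1 of high-fat CB1-/- vehicle arrays 42, 43 and 44, high-fat wild-type vehicle arrays 1 and 5, chow CB1-/- vehicle array 16 and chow wild-type vehicle array 1, with values from -0.83 to -0.72.

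On the high-fat diet, CB1-/- vehicle fat had more of both transcripts than wild-type vehicle fat. All 3 CB1-/- arrays lay above all 5 wild-type arrays for each gene. Ces1f was higher by 1.83 ± 0.28 (3.55-fold; limma adjusted p = 3.93e-05) and Ces1d by 0.92 ± 0.18 (1.89-fold; adjusted p = 0.000458). That was 2 of 6 members where 15.9% of all genes passed. The wild-type arrays are those of the diet comparison, so these results share samples. On chow the genotypes differed by 0.10 ± 0.16 for Ces1d and 0.30 ± 0.24 for Ces1f, and 0 of 6 members passed (0 unadjusted; 0.0575% of all genes passed).

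**Figure D4:**
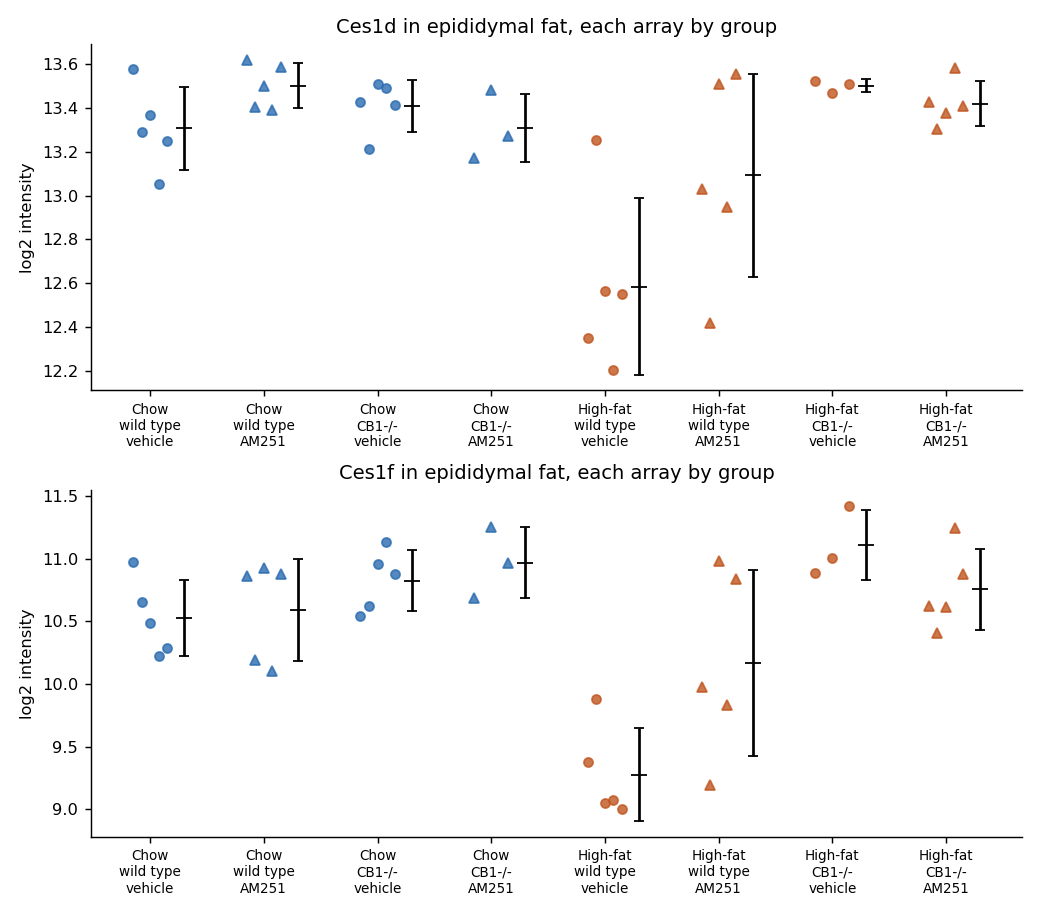
Log2 intensity (y axes) of Ces1d (top) and Ces1f (bottom) in the 8 epididymal fat groups; points are arrays (circles vehicle, triangles AM251, blue chow, orange high-fat), and black marks are the group mean with its SD. The high-fat wild-type vehicle group had the lowest mean of both genes, 12.58 and 9.28, and the high-fat CB1-/- vehicle group had the highest, 13.50 and 11.11.

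AM251-treated high-fat wild-type fat pads were spread widely for both genes. Ces1d read 13.03, 12.42, 13.51, 12.95 and 13.55 in arrays 33 to 37, and Ces1f 9.98, 9.19, 10.98, 9.84 and 10.84. Arrays 35 and 37 lay at chow levels and arrays 34 and 36 within the vehicle range for both genes. The change from vehicle was 0.51 ± 0.16 for Ces1d (limma adjusted p = 0.106) and 0.89 ± 0.24 for Ces1f (adjusted p = 0.0631), so neither passed, and 0 of 6 members did (2 at an unadjusted p under 0.05, as had 13.4% of all genes), where 1.11% of all genes passed. Without array 34 they were 0.68 (adjusted p = 0.00655) and 1.13 (adjusted p = 0.00475), and without high-fat vehicle array 3 they were 0.68 (adjusted p = 0.0191) and 1.04 (adjusted p = 0.0381). Whether the change passed thus depended on single arrays.

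In high-fat CB1-/- fat the AM251 change was -0.08 ± 0.18 for Ces1d and -0.35 ± 0.28 for Ces1f, with 0 of 6 members called (0 unadjusted; 0% of all genes). The genotype difference of the AM251 change was 0.59 ± 0.24 for Ces1d (limma adjusted p = 0.333) and 1.24 ± 0.37 for Ces1f (adjusted p = 0.137), with 0 of 6 called (2 unadjusted, beside 10.8% of all genes; 0.407% of all genes passed); for Ces1f it was 1.48 (adjusted p = 0.0227) without AM251 array 34. On chow 0 of 6 members passed with AM251 in wild-type fat (2 unadjusted, beside 13.4% of all genes; 0% of all genes passed), in CB1-/- fat (0 unadjusted; 0.0157%) or for the difference between them (0 unadjusted; 0.00522%).

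Under AM251 the diet comparison in fat called no member. In wild-type mice Ces1d differed by -0.41 ± 0.16 (limma adjusted p = 0.0954) and Ces1f by -0.43 ± 0.24 (adjusted p = 0.31), with 0 of 6 called (1 unadjusted, beside 22.7% of all genes) where 9.55% of all genes passed. The call for Ces1d appeared without AM251 array 35 (-0.51; adjusted p = 0.0343) or 37 (-0.53; adjusted p = 0.0251). In CB1-/- mice the differences were 0.11 ± 0.18 and -0.21 ± 0.28, with 0 of 6 called (0 unadjusted; 0.81% of all genes). Over the 8 fat groups the means of Ces1d ran from 13.50 in high-fat CB1-/- vehicle to 12.58 in high-fat wild-type vehicle, and those of Ces1f from 11.11 to 9.28 in the same groups. Of the 7 neighbouring pairs in each order, the only pair further apart than the larger SD was the last, high-fat wild-type AM251 above high-fat wild-type vehicle.

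Ces1d and Ces1f followed each other from array to array in fat. Pearson's r over the 36 fat arrays was 0.91, and 0.84 after removing group means. In liver the same pair gave 0.76 over 39 arrays, while Ces2a and its cluster neighbour Ces2e gave 0.09. The probes of these closely related genes were not examined, so a share of signal from a relative's transcript was not tested. The 5 genes most like Ces1d over the fat arrays were Art3 (r = 0.92), Phyh (0.92), Ffar4 (0.89), Colca2 (0.89) and Aldh6a1 (0.89). Phyh is a peroxisomal enzyme of phytanic acid breakdown, Ffar4 a long-chain fatty acid receptor and Aldh6a1 a mitochondrial enzyme of valine breakdown. The 5 most like Ces2a over the liver arrays were Ccl9 (0.84), a chemokine, Slc13a2 (0.84), a dicarboxylate transporter, Hacl1 (0.83), a peroxisomal lyase, Slco2a1 (0.82), a prostaglandin transporter, and Cyp2c55 (0.81), a cytochrome P450. All of these coefficients are descriptions, since the arrays share groups. Once group means were removed, the likeness to Ces2a in liver fell to between 0.43 and 0.56. That to Ces1d in fat was then between 0.80 and 0.87.

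The macrophage marker sum moved opposite to Ces1d and Ces1f with diet in wild-type vehicle fat and with genotype in high-fat vehicle fat. The summed log2 level of the 10 measured macrophage markers of 12 listed ran from 11.94 to 12.27 in chow wild-type vehicle fat, from 12.76 to 14.13 in high-fat wild-type vehicle fat and from 11.98 to 12.03 in high-fat CB1-/- vehicle fat. With diet in wild-type vehicle mice 7 of the 10 passed as higher and 0 as lower, where 24.5% of all genes passed. Cd163, 1 of the 10, had a lower mean, 8.08 ± 0.39 (SD, n = 5) against 8.46 ± 0.17 (SD, n = 5) on chow. In the same comparison 4 of 8 mesothelial markers fell. In chow wild-type fat the macrophage sum was higher with AM251 (12.31 to 12.59) than with vehicle. Mean Ces1d and Ces1f were not lower there, at 13.50 and 10.59 with AM251 and 13.31 and 10.52 with vehicle. In high-fat CB1-/- against wild-type fat 7 of the 10 were lower and 5 of the 8 mesothelial markers higher, where 15.9% of all genes passed. The exocrine pancreas sum (6 of 8 measured) ran from 9.19 to 9.77 in chow wild-type vehicle fat. It ran from 10.32 to 10.99 in high-fat wild-type and from 9.40 to 9.72 in high-fat CB1-/- vehicle fat. Of the 6 markers 1 was higher for diet and 1 lower for genotype. The pancreas sum mainly follows 1 gene, Cela1, with a median of 8.71 and a highest value of 10.69 over the 36 fat arrays. Medians of the other pancreas markers ran from 4.83 for Cela2a to 6.96 for Prss2, so the sum does not show pancreatic cells. Within the high-fat wild-type groups, the 3 arrays with the lowest macrophage sums, AM251 array 37 (12.37), AM251 array 35 (12.64) and vehicle array 3 (12.76), were also the 3 highest for Ces1d and for Ces1f except that AM251 array 33, at 9.98 for Ces1f, lay above vehicle array 3, at 9.88.

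The adipocyte marker sum (7 of 9 measured) was 15.96 to 16.09 on chow and 15.88 to 16.16 on high-fat feeding in wild-type vehicle fat. Cyp2e1, listed as a hepatocyte marker, was bright in every fat array (11.73 to 14.09). In wild-type vehicle mice its means were 13.76 ± 0.14 (SD, n = 5) on chow and 12.31 ± 0.41 (SD, n = 5) under high-fat feeding. Other hepatocyte markers varied by different amounts over the 36 arrays. Ttr stayed between 3.59 and 4.15, while Alb ran from 4.14 to 8.49 and Arg1 from 4.19 to 8.05. Mean Alb was 6.93 ± 1.25 (SD, n = 5) in chow and 4.80 ± 0.105 (SD, n = 5) in high-fat wild-type vehicle fat. In high-fat CB1-/- vehicle fat it was 7.09 ± 1.16 (SD, n = 3). The part of cell composition in the Ces1d and Ces1f results was not tested.

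**Figure D5:**
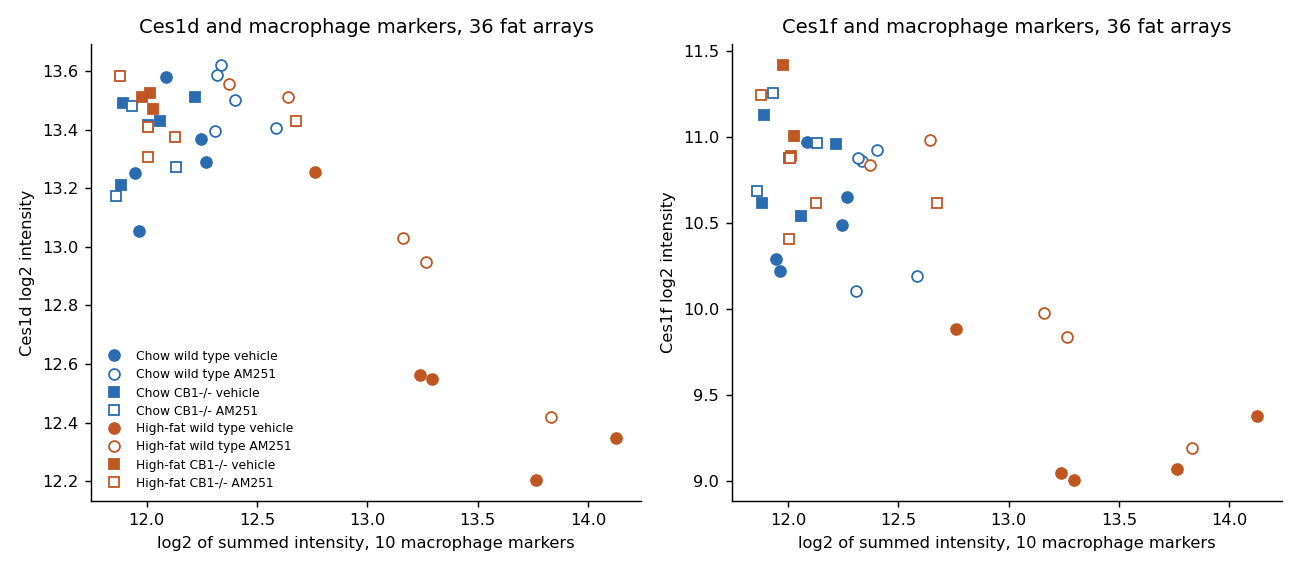
Ces1d (left) and Ces1f (right) log2 intensity (y axes) against the log2 summed intensity of 10 macrophage markers (x axes) in the 36 fat arrays; circles are wild type and squares CB1-/-, filled for vehicle and open for AM251, blue for chow and orange for high-fat. The high-fat wild-type arrays spread from sums of 12.37 to 14.13, and those with the higher sums had the lower levels of both genes.

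Markers of epididymis epithelium, the organ beside the sampled fat, stood apart on 2 fat arrays, high-fat wild-type vehicle 3 (summed log2 level 11.74, 8 of 10 markers measured) and high-fat wild-type AM251 36 (13.77), against 8.29 to 10.23 on the others. Ces5a, a carboxylesterase of the epididymis, read 10.49 and 10.86 on these arrays, 5.86 on AM251 array 37 and at most 4.33 on all other fat arrays. Without the 2 arrays the diet change in wild-type vehicle fat was -1.40 ± 0.25 for Ces1f and -0.89 ± 0.14 for Ces1d, and the CB1-/- minus wild-type difference on the high-fat diet 1.98 ± 0.29 and 1.09 ± 0.16. The AM251 change in high-fat wild-type fat then passed for both genes, at 1.12 ± 0.26 for Ces1f (limma adjusted p = 0.0361) and 0.71 ± 0.15 for Ces1d (adjusted p = 0.0213). This alternative was chosen after seeing the data. It kept chow wild-type vehicle array 5 (10.23) and high-fat wild-type AM251 array 37 (10.13), which had the next highest epididymis sums. The array after those, high-fat CB1-/- AM251 49, had 9.13.

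The other hydrolases of fat moved in both directions with diet in wild-type vehicle mice, where 24.5% of all genes passed. Of 20 measured lipid hydrolases and regulators 5 rose, led by Nceh1 (2.52 ± 0.35) and the lysosomal acid lipase Lipa (1.78 ± 0.25), and 4 fell, among them Pnpla2, the adipose triglyceride lipase (-0.60 ± 0.09). Of 25 xenobiotic genes 2 rose and 7 fell, with Gsta4 (-1.73 ± 0.21), Fmo1 (-1.26 ± 0.17) and Gstt1 (-1.17 ± 0.18) among those that fell. Of 18 receptors and factors 1 rose and 7 fell, including the carbohydrate response factor Mlxipl (-1.24 ± 0.19), Ppara (-0.78 ± 0.12) and the glucocorticoid receptor Nr3c1 (-0.65 ± 0.11). Of 12 VLDL assembly genes 0 rose and 2 fell, Dgat1 (-0.64 ± 0.10) and Surf4 (-0.32 ± 0.08). The medians were -0.04, -0.12, -0.23 and -0.04, beside 0.02 for all genes.

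In high-fat CB1-/- against wild-type vehicle fat, Pnpla2 (0.61 ± 0.10), Gsta4 (1.76 ± 0.25), Fmo1 (1.35 ± 0.20), Gstt1 (1.09 ± 0.20) and Ppara (0.81 ± 0.14) were higher, as Ces1d and Ces1f were. Nceh1 (-2.65 ± 0.41) and Lipa (-1.73 ± 0.29) were lower. In all, 2 of the 20 lipid hydrolases and regulators were higher and 5 lower, 7 of 25 xenobiotic genes higher and 0 lower, 2 of 18 receptors and factors higher and 0 lower, and 1 of 12 VLDL genes higher and 0 lower, where 15.9% of all genes passed. The 7 other carboxylesterase genes had 0 calls in either comparison, with changes from -0.19 to 1.65 for diet, the upper end being Ces5a.

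With AM251 in high-fat wild-type fat, where Ces1d and Ces1f did not pass, Plin5 (1.11 ± 0.21) and Pnpla2 (0.35 ± 0.09) of the lipid hydrolase list rose, as did the epoxide hydrolase Ephx2 (0.99 ± 0.18), and Dgat2, which makes triacylglycerol, fell (-0.58 ± 0.12; limma adjusted p = 0.0115).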

How the data were processed

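RNA of 75 liver and fat samples was hybridised to one-colour arrays. Per the submitters' processing notes the authors summarised probes with RMA (version not given in the sources used here). They deposited 1 intensity per probe set and array, on a linear scale, although descriptions name pooled references. Array medians differed between tissues and were similar within them, so tissues appear to have been scaled separately. The genome build of the array is not given in the sources used here.

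Of 38385 probe sets, 24478 had 1 gene symbol and gave 19147 genes, each represented by the probe set that was brightest on average in that tissue; 65 with several symbols were left out. Log2 intensity was fitted with limma 3.58.1 (R 4.3.3), 1 mean per group over all groups of a tissue (both tissues for the tissue contrast), with moderated two-sided tests and Benjamini-Hochberg adjustment over all genes at 0.05. Liver diet contrasts, which chose the list, were described without a test. Members, lists and tests were chosen with earlier results of these data known. The text names all members, up to 3 genes per list and comparison with the smallest p, and the 5 genes most correlated with Ces2a in liver and Ces1d in fat. The fit was also tested on simulated data with known changes. Depth has no meaning here; the number of arrays limits precision. Same-numbered arrays did not deviate together (mean correlation 0.04 over 30 liver and fat pairs; 0.04 and -0.03 between diets in liver and fat), so numbers were not used as pairs. Alternatives were array weights, quantile normalization, an offset of 16, a filter on dim genes, mean of probe sets, fits of the compared groups alone, replicate blocks and leaving out arrays.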

Additional observations from a re-analysis of the deposited data

Results flagged for a closer look

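In fat, the diet change of vehicle mice differed between wild type and CB1-/- by -1.53 for Ces1f and -0.82 for Ces1d. Both passed the limma threshold for the difference itself, but close to it. Leaving out 1 array at a time lost the call for Ces1d with 7 of 18 arrays and for Ces1f with 1 of 18.

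Among 84 sets of 4 or 5 arrays of the 6 members, 6 held an array further from the others than Dixon's 95% limit, where chance gives about 1 in 20. In liver these were Ces1d in high-fat wild-type vehicle array 5 (12.31, others 11.90 to 11.96) and Ces1e in high-fat CB1-/- vehicle array 44 (10.28, others 11.12 to 11.27). In fat they were Ces1e in chow wild-type vehicle array 5 (4.75, others 3.43 to 3.58) and in high-fat wild-type vehicle array 3 (4.48, others 3.38 to 3.42), Ces2a in high-fat wild-type AM251 array 37 (5.18, others 4.87 to 4.95) and Ces2e in chow wild-type AM251 array 12 (4.4, others 3.92 to 4.02). The summed epididymis marker levels of the arrays that were high for Ces1e were 10.23 and 11.74, and of the array high for Ces2a 10.13; their part in these values was not tested.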

How the results depend on the processing

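Of 406 counts of called members over 22 comparisons and their alternatives, 389 stayed within 1.5 times the count reported and 17 did not. For AM251 in high-fat wild-type liver the count was 0 in the fit of only the groups compared (1 in the fit reported). For AM251 in high-fat wild-type fat (0 reported) it was 1 with only genes above the median level, 2 with array weights, 2 without the arrays with high epididymis markers, an alternative chosen after seeing the data, and 0 to 2 when 1 array at a time was left out. Leaving out arrays gave 0 to 2 for the genotype difference of the diet change in fat (2 reported), 0 to 1 for the genotype difference of the AM251 change in high-fat fat (0 reported) and 0 to 1 for diet in AM251-treated wild-type fat (0 reported). With the replicate block in a fit of only the groups compared, the diet comparison of wild-type vehicle fat called 1 member. Ces1d had -0.72 in that fit, with a limma adjusted p of 0.061 (0.0113 without the block). With the block the tissue comparison called 6. Each mouse was kept on 1 diet, so a number shared between the diets cannot mean the same mouse. Between the tissues the numbers are not shown to pair mice. Over 235 alternatives of the 13 called values, 225 kept their side of the threshold, 10 lost it and 0 changed sign. The 119 values that did not pass changed sign in 157 of 2149 alternatives, at most 0.18 from zero in these, and passed in 13. The causes were not tested. Chow CB1-/- vehicle liver arrays 15 and 17 had the lowest mean correlations with the other liver arrays, 0.982 and 0.963. They were also left out together after seeing the data, with no change of a call among the members. Dim members in fat are limited by signal near the low end of the scale.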
